A study of Danio rerio with 8 samples.

Results

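The monoamine transmitters dopamine, noradrenaline and serotonin are made by short enzyme pathways in small groups of brain neurons, and the genes of these pathways were examined in brains of zebrafish lacking functional *psap*. The genes were taken by symbol from the annotation and read from the count table by their gene identifier. They were *th* and *th2*, named for tyrosine hydroxylase, the dopamine neuron factors *nr4a2a* and *nr4a2b*, and the noradrenaline enzyme *dbh*. The others were the tryptophan hydroxylases *tph1a* and *tph2*, and *ddc*, *slc18a2* and *mao*, which serve several of the transmitters. All 10 symbols had a row among the 22871 genes in the table, and the first row with each symbol was used. All 10 passed the filter on low counts that left 21140 genes for testing. *psap* encodes prosaposin, the precursor of the saposins that lysosomal enzymes need to break down sphingolipids. The study compared homozygous *psap* KO zebrafish, made by CRISPR-Cas9 and carrying an insertion with a premature stop codon early in the gene, with their WT siblings, both of the TuAB strain, untreated, of mixed sex and at 4 months post-fertilization (mpf). Each of the 8 total RNA libraries, 4 per genotype, held 3 pooled brains, so the spread between libraries is the spread between pools. All KO fish carry the same founder allele. The fish were sampled when the disease was advanced, so that the genotype and the state of the sick fish cannot be told apart.

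In the dopamine pathway, tyrosine hydroxylase makes L-DOPA from tyrosine, Ddc (aromatic L-amino acid decarboxylase) turns L-DOPA into dopamine, and Dbh converts dopamine into noradrenaline inside the vesicle. In the serotonin pathway, tryptophan hydroxylase makes 5-hydroxytryptophan, on which Ddc acts next. The vesicular monoamine transporter Slc18a2 loads all of these amines into vesicles, and monoamine oxidase, which zebrafish have as a single gene, breaks them down. The zebrafish brain has its dopamine neurons in the forebrain rather than the midbrain, its noradrenaline neurons mainly in the locus coeruleus and the medulla, and its serotonin neurons in the raphe and in the hypothalamus.

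Levels are given as CPM (a gene's counts divided by the library's TMM-scaled total, in parts per 1000000), and log2 fold changes compare *psap* KO with WT in the edgeR quasi-likelihood fit over all tested genes, with Benjamini-Hochberg adjusted p-values and a threshold of 0.05. Transcript lengths were not at hand, so levels are compared between libraries and not between genes. Of the 10 genes, 3 were higher in *psap* KO brains (*dbh*, *nr4a2b* and *ddc*), 2 were lower (*tph1a* and *th2*) and 5 did not pass the test (*th*, *nr4a2a*, *tph2*, *slc18a2* and *mao*). Over all tested genes, 4720 (22.3%) were higher and 3903 (18.5%) lower, so that 3 and 2 of 10 lie near the background. The libraries of the genotypes did not overlap for 4 of the 10 genes, beside 40.3% of all tested genes. The median log2 fold change of the 10 genes was 0.19, against 0.02 over all tested genes, and the median absolute log2 fold change was 0.35 against 0.30. The counts thus read as those of genes at large, and the values follow gene by gene.

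**Figure D1:**
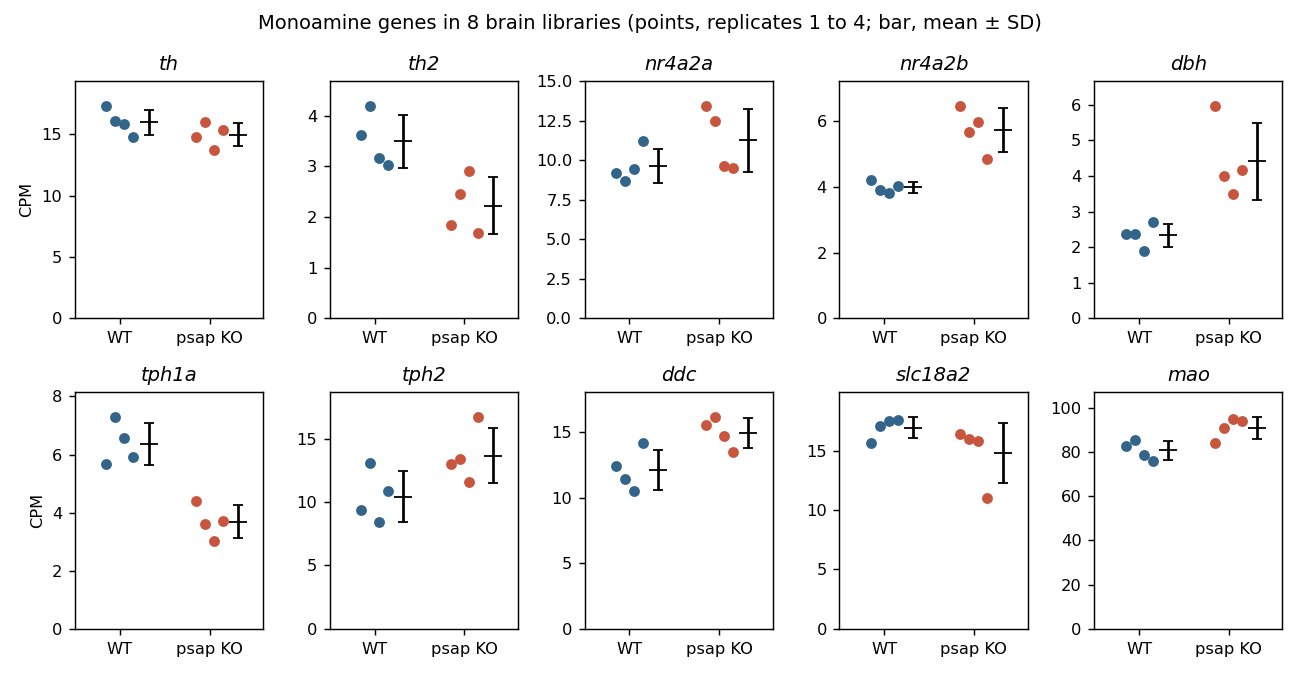
TMM-scaled CPM of the 10 monoamine genes in each of the 4 WT and 4 *psap* KO libraries (points in replicate order, bar with mean ± SD; each panel has its own axis from 0). The genotypes do not overlap for *th2*, *nr4a2b*, *dbh* and *tph1a*, whereas the points of *th*, *nr4a2a*, *tph2*, *ddc*, *slc18a2* and *mao* overlap.

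Among the dopamine genes, *th*, the tyrosine hydroxylase of most dopamine and noradrenaline neurons, gave 17.3, 16.1, 15.9 and 14.8 CPM in WT replicates 1 to 4. In *psap* KO replicates 1 to 4 it gave 14.8, 15.97, 13.8 and 15.3 CPM. The genotypes overlapped, although WT replicates 1 and 2 lay above every KO library and KO replicate 3 below every WT library, and *th* was the most even of the synthesis genes, with a coefficient of variation of 6.37% in WT and 6.25% in *psap* KO. Its means were 16.0 ± 1.02 and 14.96 ± 0.935 CPM (SD, n = 4 each). The log2 fold change was -0.10 (SE 0.0896, 95% interval -0.29 to 0.10, edgeR adjusted p = 0.430). *th* lies on chromosome 25 from 24055341 to 24074500 in the coordinates of the deposited annotation, which names no build.

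*th2*, a second gene named for tyrosine hydroxylase that in zebrafish is used by hypothalamic cells, was lower in *psap* KO brains. The activity of its enzyme was not examined here. The WT libraries gave 3.62, 4.18, 3.17 and 3.02 CPM and the *psap* KO libraries 1.84, 2.46, 2.92 and 1.69 CPM. The genotypes did not overlap, but the highest KO library lay just under the lowest WT library. The means were 3.50 ± 0.523 and 2.23 ± 0.571 CPM (SD, n = 4 each), a level 0.639 times that of WT (log2 fold change -0.65, SE 0.219, edgeR adjusted p = 0.0325). *th2* rests on few reads, with 67, 62, 72 and 65 counts in WT and 33, 56, 60 and 44 counts in *psap* KO libraries. The call was lost when WT replicate 1 (adjusted p = 0.0682), WT replicate 2 (0.0905), *psap* KO replicate 1 (0.0772) or *psap* KO replicate 4 (0.0784) was left out, with log2 fold changes between -0.63 and -0.53. *th2* lies on chromosome 4 from 17380578 to 17391091.

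The ratio of *th2* to *th* counts within a library, which does not depend on how libraries are scaled, was 0.209, 0.261, 0.199 and 0.204 in WT. It was 0.124, 0.154, 0.212 and 0.110 in *psap* KO, where replicate 3 lay among the WT values. The difference of -0.58 on the log2 scale did not pass an exact two-sided permutation test (p = 0.114, and 0.114 adjusted over the 6 ratios computed), so a different change of the 2 hydroxylase genes is not shown.

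The 2 zebrafish counterparts of NURR1, an orphan nuclear receptor that midbrain dopamine neurons of mammals need, both had higher means in *psap* KO, and 1 of them passed the test. *nr4a2b* gave 4.21, 3.91, 3.83 and 4.05 CPM in WT, the tightest WT group of the 10 genes with a coefficient of variation of 4.19%. In *psap* KO it gave 6.46, 5.68, 5.98 and 4.86 CPM, all above the WT libraries. The log2 fold change was 0.52 (SE 0.143, 95% interval 0.21 to 0.83, 1.43-fold, edgeR adjusted p = 0.0114). *nr4a2a* gave 9.18, 8.71, 9.46 and 11.2 CPM in WT and 13.4, 12.5, 9.67 and 9.50 CPM in *psap* KO. Its KO libraries were split, with replicates 1 and 2 above every WT library and replicates 3 and 4 among them, and the log2 fold change of 0.22 (SE 0.139, 95% interval -0.08 to 0.52) did not pass (adjusted p = 0.234). Without *psap* KO replicate 1 it was 0.13 (adjusted p = 0.504). The ratio of *nr4a2b* to *nr4a2a* counts was 0.361 to 0.459 in WT and 0.454 to 0.618 in *psap* KO, a log2 difference of 0.30 with an exact permutation p of 0.0571 (0.0686 adjusted over the 6 ratios). *nr4a2a* lies on chromosome 9 from 5040985 to 5046315, and *nr4a2b* on chromosome 6 from 12462079 to 12466550.

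The other members of the Nr4a family, which are induced within minutes by neuronal activity and other stimuli, had lower levels in *psap* KO. *nr4a1* gave 23.9, 17.2, 19.4 and 15.1 CPM in WT and 5.57, 6.91, 9.24 and 8.39 CPM in *psap* KO, a log2 fold change of -1.32 (SE 0.174, edgeR adjusted p = 9.38e-05). *nr4a3* fell from 19.5 ± 5.33 to 11.6 ± 0.993 CPM (SD, n = 4 each; log2 fold change -0.75, SE 0.172, adjusted p = 0.00461). Every *psap* KO library was below every WT library for both genes, and the genotypes did not overlap for 40.3% of all tested genes. Of the 4 family members measured, 1 therefore rose, 2 fell and *nr4a2a* did not pass the test. Over all tested genes 22.3% were called higher and 18.5% lower. *nr4a1* and *nr4a3* stayed below 0 when libraries were scaled to pan-neuronal genes, a scaling described below. There *nr4a1* (-0.84, edgeR adjusted p = 0.00122) was still called and *nr4a3* (-0.27, adjusted p = 0.178) was not. The difference between family members was not tested.

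*dbh*, the enzyme that sets noradrenaline neurons apart from dopamine neurons, showed the largest rise of the 10 genes. The WT libraries gave 2.38, 2.36, 1.89 and 2.70 CPM and the *psap* KO libraries 5.96, 4.00, 3.50 and 4.17 CPM, so that the lowest KO library stood above the highest WT library and KO replicate 1 stood above the other KO libraries. The means were 2.33 ± 0.332 and 4.41 ± 1.07 CPM (SD, n = 4 each), a 1.89-fold difference (log2 fold change 0.91, SE 0.207, 95% interval 0.46 to 1.37, edgeR adjusted p = 0.00371). The reads behind it numbered 44, 35, 43 and 58 in WT and 107, 91, 72 and 109 in *psap* KO. The call held in each of the 17 alternatives, with log2 fold changes from 0.74 to 1.39.

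*dbh* lies on chromosome 10 from 10564261 to 10607118 on the minus strand, where its end overlaps the gene *sardh* on the plus strand by 708 bases. The library kit kept strand, but whether reads were assigned by strand is not given in the sources used here, and without strand reads in the overlap cannot be told apart. *sardh*, which encodes sarcosine dehydrogenase of one-carbon metabolism, went from 8.21 to 10.4 CPM (log2 fold change 0.34, SE 0.142, adjusted p = 0.0746), a smaller difference that did not pass the test. The ratio of *dbh* to *th* counts was 0.138, 0.147, 0.119 and 0.182 in WT and 0.402, 0.251, 0.254 and 0.273 in *psap* KO, without overlap. The log2 difference was 1.00, with an exact two-sided permutation p of 0.0286, which is the smallest that 4 against 4 libraries allow, and 0.0571 after adjustment over the 6 ratios.

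Among the serotonin genes, the tryptophan hydroxylase *tph1a* was lower in *psap* KO and *tph2* did not pass the test. *tph1a*, which in the zebrafish brain is used mainly outside the raphe, gave 5.67, 7.29, 6.55 and 5.91 CPM in WT and 4.40, 3.61, 3.01 and 3.71 CPM in *psap* KO. All KO libraries lay below all WT libraries. The means were 6.35 ± 0.726 and 3.68 ± 0.568 CPM (SD, n = 4 each), a level 0.580 times that of WT (log2 fold change -0.79, SE 0.158, 95% interval -1.13 to -0.44, edgeR adjusted p = 0.00173). *tph1a* had the smallest adjusted p of the 10 genes and kept its call without any single library. It lies on chromosome 25 from 8139220 to 8160030. The tryptophan hydroxylase gene *tph1b* is not among the 10 genes and was named after its values were seen. Its means were 0.619 CPM in WT and 0.687 CPM in *psap* KO (log2 fold change 0.13, SE 0.344, edgeR adjusted p = 0.786).

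*tph2*, the hydroxylase of raphe neurons, gave 9.34, 13.1, 8.45 and 10.9 CPM in WT and 12.97, 13.4, 11.6 and 16.7 CPM in *psap* KO. WT replicate 2 lay among the KO libraries, and *tph2* had the widest WT spread of the 10 genes, with a coefficient of variation of 19.5%. The log2 fold change of 0.40 (SE 0.151, 95% interval 0.07 to 0.73) fell just short of the threshold (edgeR adjusted p = 0.0535). It passed without WT replicate 2 (log2 fold change 0.52, adjusted p = 0.0180) and without *psap* KO replicate 3 (0.47, adjusted p = 0.0394), and moved away from it most without WT replicate 3 (0.30, adjusted p = 0.156) and without *psap* KO replicate 4 (0.28, adjusted p = 0.144). *tph2* also marks the pineal organ in zebrafish, and the summed level of 10 pineal and photoreceptor genes was 45.7, 50.7, 7.08 and 22.4 CPM in WT and 40.0, 36.8, 6.95 and 46.0 CPM in *psap* KO. *tph2* was lowest in replicate 3 of both genotypes, the libraries with the least of these transcripts, but their part in its level was not tested. Without both of these libraries, a comparison chosen after seeing the data, *dbh*, *tph1a* and *th2* kept their calls while *nr4a2b* (adjusted p = 0.0772) and *ddc* (0.192) did not, and *tph2* was at 0.38 (0.108). *tph2* lies on chromosome 18 from 16989764 to 17001056.

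The ratio of *tph1a* to *tph2* counts separated the genotypes more widely than either gene. It was 0.607, 0.557, 0.776 and 0.543 in WT and 0.339, 0.270, 0.261 and 0.223 in *psap* KO, so that the highest KO value was well under the lowest WT value. The log2 difference was -1.19, a ratio 0.439 times that of WT (exact two-sided permutation p = 0.0286, 0.0571 after adjustment over the 6 ratios). The exact permutation test of 4 against 4 libraries cannot go below p = 0.0286, and none of the 6 ratios passed after adjustment.

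**Figure D2:**
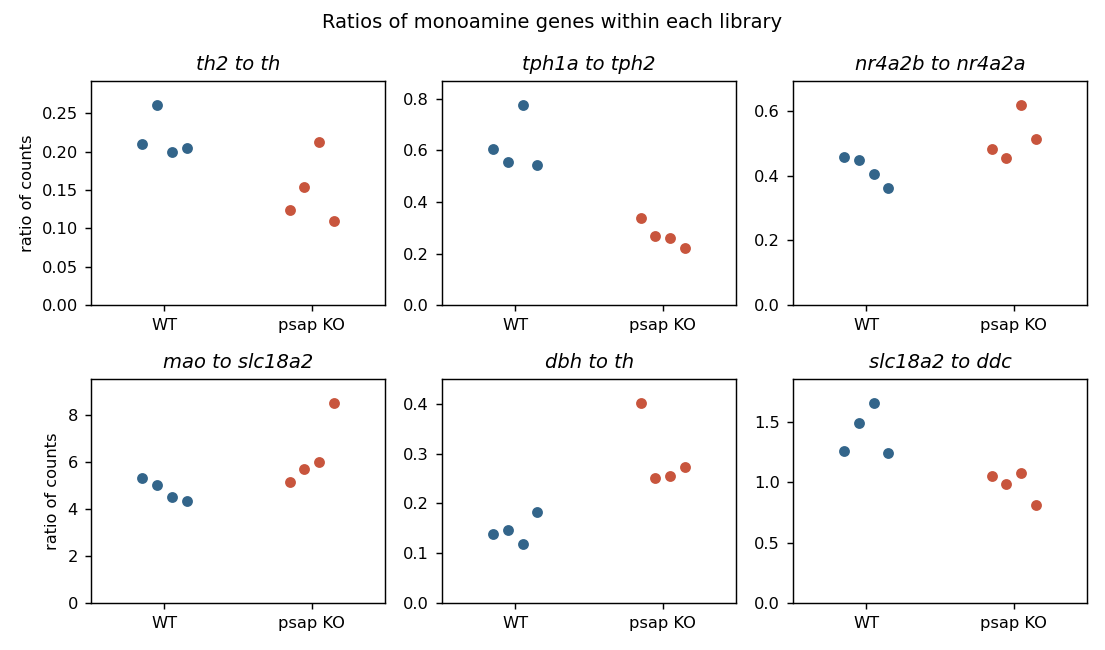
Ratio of the counts of 2 monoamine genes within each library, for the 6 pairs computed (points, the 4 WT and 4 *psap* KO libraries in replicate order; each panel has its own axis from 0). The genotypes do not overlap for *tph1a* to *tph2*, *dbh* to *th* and *slc18a2* to *ddc*, and overlap for the other ratios.

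Of the genes shared by all monoamine neurons, *ddc* was higher in *psap* KO brains. It gave 12.4, 11.4, 10.5 and 14.1 CPM in WT and 15.5, 16.1, 14.7 and 13.5 CPM in *psap* KO, where replicate 4 lay below WT replicate 4. The log2 fold change was 0.30 (SE 0.111, 95% interval 0.06 to 0.54, 1.23-fold, edgeR adjusted p = 0.0460), the call of the 10 genes nearest to the threshold. It was lost without WT replicate 1 (adjusted p = 0.0768), 2 (0.107) or 3 (0.138) and without *psap* KO replicate 1 (0.0885), 2 (0.116) or 3 (0.0770). The exact permutation test of *ddc* alone gave p = 0.0571.

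*slc18a2*, the vesicular transporter, gave 15.7, 17.1, 17.5 and 17.5 CPM in WT and 16.4, 15.97, 15.8 and 11.03 CPM in *psap* KO. The first 3 KO libraries lay within the WT range and replicate 4 stood apart below all others. The log2 fold change was -0.20 (SE 0.123, 95% interval -0.47 to 0.07, edgeR adjusted p = 0.220), and without *psap* KO replicate 4 it was -0.08 (adjusted p = 0.534). The ratio of *slc18a2* to *ddc* counts was 1.26, 1.497, 1.66 and 1.24 in WT and 1.05, 0.989, 1.08 and 0.816 in *psap* KO, without overlap. The log2 difference was -0.52 (exact permutation p = 0.0286, 0.0571 adjusted over the 6 ratios), with replicate 4 again the lowest.

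*mao*, which clears all monoamines and is used by glia as well as neurons in mammals, gave 82.9, 85.5, 78.8 and 75.9 CPM in WT and 84.0, 90.8, 94.7 and 93.9 CPM in *psap* KO. *psap* KO replicate 1 lay among the WT libraries and the other 3 lay above them. The log2 fold change was 0.17 (SE 0.0662, 95% interval 0.03 to 0.31, 1.13-fold), which did not pass the threshold (edgeR adjusted p = 0.0576) but passed without *psap* KO replicate 1 (0.21, adjusted p = 0.0303). Without any other single library it did not pass, with values down to 0.13 (adjusted p = 0.153) without WT replicate 4. The ratio of *mao* to *slc18a2* counts was 4.33 to 5.29 in WT and 5.13 to 8.51 in *psap* KO (log2 difference 0.38, exact permutation p = 0.0571, 0.0686 adjusted over the 6 ratios). *ddc* lies on chromosome 16 from 8298542 to 8342749, *slc18a2* on chromosome 17 from 23782324 to 23811332 and *mao* on chromosome 9 from 33660964 to 33725972.

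**Figure D3:**
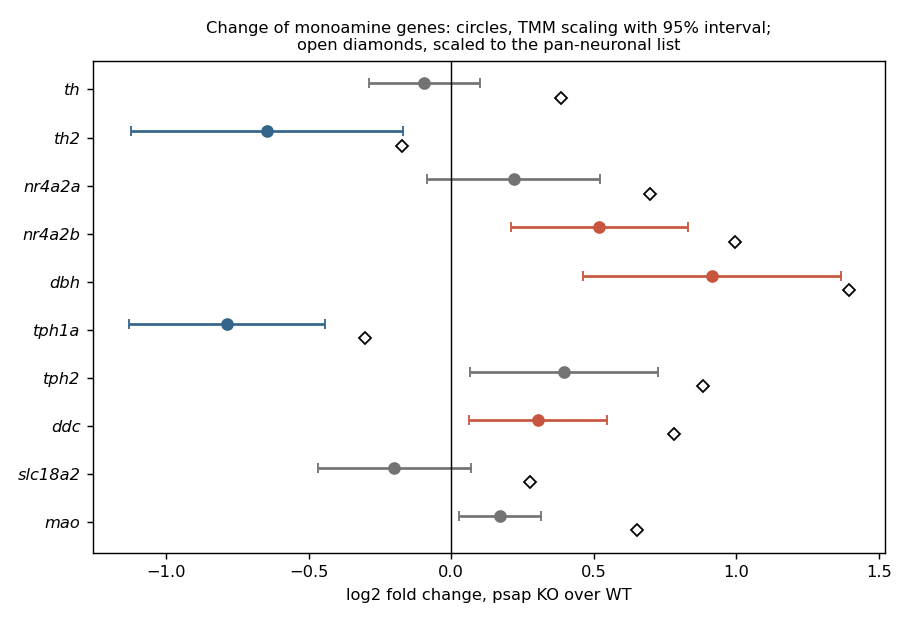
Change in *psap* KO against WT on the log2 scale for the 10 monoamine genes (circles with 95% intervals, TMM scaling; red, higher; blue, lower; grey, not past the threshold; open diamonds, the same fit with libraries scaled to 12 pan-neuronal genes). Each diamond lies right of its circle, and *th* and *slc18a2* are on opposite sides of 0 under the 2 scalings.

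Monoamine neurons are a small share of brain neurons, and transcripts of neurons in general were lower in the *psap* KO libraries. Of 12 pan-neuronal genes, among them *snap25a*, *syt1a* and *elavl4*, 11 fell, beside 18.5% of all tested genes, and only *elavl3* missed the threshold. Their median log2 fold change was -0.46, and they summed to between 7215 and 7548 CPM in WT libraries against 5070 to 5399 CPM in KO libraries. In whole brain RNA, fewer neurons and less RNA per neuron cannot be told apart. When libraries were scaled to the geometric mean of these 12 genes, the median of all genes moved up by 0.48 on the log2 scale, and 65.3% of all tested genes were called higher and 2.25% lower. On that neuronal scale 8 of the 10 monoamine genes were called higher and 0 lower. *th* turned from -0.10 to 0.39 (edgeR adjusted p = 0.00450) and *slc18a2* from -0.20 to 0.28 (adjusted p = 0.0454). *th2* (-0.17, adjusted p = 0.494) and *tph1a* (-0.30, adjusted p = 0.120) were the only ones of the 10 genes still below 0, and neither was called. *dbh* was highest at 1.39 (adjusted p = 9.46e-05). With TMM scaling no difference of *th* or *slc18a2* was called. Relative to the pan-neuronal genes both were called higher, as were most genes of the table. A ratio of *slc18a2* to the 12 genes in each library overlapped between genotypes (exact permutation p = 0.114, 0.127 adjusted over the 10 genes). The ratios of *th2* and *tph1a* overlapped too. That of *th* did not overlap (exact permutation p = 0.0286, 0.0408 adjusted over the 10 genes). Those of *nr4a2a*, *nr4a2b*, *dbh*, *tph2*, *ddc* and *mao* did not overlap either. The share of all tested genes without overlap on this scale was not computed.

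The transporters that return amines to the cell were the first set of neighbouring genes examined, and 0 of the 4 measured passed the edgeR test. The count was also 0 at an unadjusted p under 0.05, by DESeq2 and by limma-voom. Over all tested genes 22.3% were called higher and 18.5% lower, and an unadjusted edgeR p of 0.0525 had rank 10341 of 21140. Whether 0 of 4 departs from these shares was not tested. On the pan-neuronal scale 3 of the 4 (75%, beside 65.3% of all tested genes) were called higher. Named here after their values were seen, the noradrenaline transporter *slc6a2* was at 23.7 ± 1.38 CPM in WT and 24.3 ± 1.79 CPM in *psap* KO (log2 fold change 0.04, 95% interval -0.14 to 0.22). The dopamine transporter *slc6a3* was at 5.06 ± 1.05 and 5.03 ± 0.480 CPM (-0.01, 95% interval -0.38 to 0.36). The serotonin transporters were at 9.58 and 9.27 CPM for *slc6a4a* and at 1.90 and 1.47 CPM for *slc6a4b* (log2 fold changes -0.05 and -0.38). The interval of *slc6a2* lies below the whole interval of *dbh*, but the difference between them was not tested. Among other genes of noradrenaline neurons, also named after their values were seen, the homeobox factors *phox2a* (log2 fold change -0.54, edgeR adjusted p = 0.0652) and *phox2bb* (-0.33, adjusted p = 0.167) did not pass and had estimates below 0.

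Tyrosine and tryptophan hydroxylases need the cofactor tetrahydrobiopterin, and 7 genes of its synthesis and recycling were measured. Of these, 2 (28.6%, beside 22.3% of all tested genes) were higher and 0 (beside 18.5%) lower, so that the count lies near the background. The same counts stood at an unadjusted p under 0.05 and by limma-voom, while DESeq2 called *qdpra* alone. Among the 21140 tested genes, an unadjusted edgeR p of 0.0525 had rank 10341, smallest first and with both directions pooled. The share of all genes in each direction at an unadjusted p under 0.05 was not computed. On the pan-neuronal scale 5 of the 7 (71.4%, beside 65.3% of all tested genes) were called higher and 0 lower. *qdpra*, which encodes dihydropteridine reductase of the recycling step, gave 39.3, 40.7, 39.4 and 47.3 CPM in WT and 77.5, 66.7, 62.1 and 67.1 CPM in *psap* KO (log2 fold change 0.71, SE 0.0876, edgeR adjusted p = 4.49e-05). *pcbd1*, the dehydratase of the same recycling, went from 6.40 ± 1.222 to 8.47 ± 0.607 CPM (SD, n = 4 each; log2 fold change 0.40, SE 0.145, adjusted p = 0.0448), a call lost under RLE size factors (0.0545) and DESeq2 (0.0590). The other 5, *gch1* and *gch2* of the first synthesis step among them, did not pass. The median of the 7 was 0.18.

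Of 9 further genes of amine synthesis and breakdown, 4 (44.4%, beside 22.3% of all tested genes) were higher and 0 (beside 18.5%) lower. Their median log2 fold change was 0.41. DESeq2 and limma-voom also called 4 higher and 0 lower, but limma-voom called *comta* (adjusted p = 0.0347) in place of *aanat2* (0.0790). Over all genes DESeq2 called 4659 higher and limma-voom 4703. At an unadjusted p under 0.05, 6 were higher and 0 lower. Among the 21140 tested genes, an unadjusted edgeR p of 0.0525 had rank 10341, smallest first and with both directions pooled. The share of all genes in each direction at an unadjusted p under 0.05 was not computed. On the pan-neuronal scale 6 (66.7%, beside 65.3% of all tested genes) were called higher and 0 lower. *pah*, phenylalanine hydroxylase, which makes tyrosine and is best known from liver, had 2, 7, 4 and 3 counts in the WT libraries and 29, 32, 29 and 28 counts in the *psap* KO libraries. This is 0.224 ± 0.168 against 1.38 ± 0.225 CPM (SD, n = 4 each; log2 fold change 2.67, SE 0.419, edgeR adjusted p = 2.93e-04), and every KO library was well above every WT library. *comtb*, a catechol-O-methyltransferase that breaks down catecholamines, went from 7.30 to 9.73 CPM (log2 fold change 0.41, SE 0.118, adjusted p = 0.0137). *asmt2*, a methyltransferase related to the last enzyme of melatonin synthesis, went from 14.6 ± 1.28 to 18.5 ± 1.39 CPM (0.35, SE 0.0954, adjusted p = 0.0113). *aanat2*, the pineal enzyme before it, gave 0.810, 0.945, 0.572 and 0.698 CPM in WT and 1.39, 1.80, 0.681 and 2.26 CPM in *psap* KO (1.05, SE 0.365, adjusted p = 0.0371). KO replicate 3 lay among the WT libraries for *aanat2*. Both replicate 3 libraries were its lowest and had the lowest sums of pineal transcripts, whose part was not tested. *aanat2* is itself among the genes in those sums.

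Of 21 measured transcription factors that set up monoamine neurons, 0 were higher, 4 lower and 17 did not pass the edgeR test, with a median log2 fold change of -0.14. The 4 are 19.0% of the list, beside 18.5% of all tested genes. The 0 higher stand beside 22.3% of all tested genes, a difference that was not tested. At an unadjusted p under 0.05, 0 were higher and 6 lower. Among the 21140 tested genes, an unadjusted edgeR p of 0.0525 had rank 10341, smallest first and with both directions pooled. The share of all genes in each direction at an unadjusted p under 0.05 was not computed. DESeq2 called 0 and 5, beside 4659 and 4359 over all genes. Limma-voom called 0 and 4, beside 4703 and 3952. *lmx1al*, a LIM homeobox gene related to the dopamine neuron factor LMX1A of mammals, gave 7.88, 9.18, 6.42 and 6.65 CPM in WT and 4.40, 4.49, 4.38 and 5.09 CPM in *psap* KO (log2 fold change -0.71, SE 0.148, edgeR adjusted p = 0.00229). *gata3*, which serotonin neurons and many inhibitory neurons use, fell from 27.5 ± 3.24 to 17.6 ± 3.29 CPM (-0.65, SE 0.139, adjusted p = 0.00283). *tfap2a*, needed for noradrenaline neurons in zebrafish embryos, fell from 41.6 ± 1.81 to 33.1 ± 0.999 CPM (-0.33, SE 0.0675, adjusted p = 0.00186). *en2a*, a homeobox gene of the midbrain and hindbrain boundary, fell from 23.3 ± 2.09 to 18.8 ± 2.13 CPM (-0.31, SE 0.102, adjusted p = 0.0267). All 4 are also used by other neurons. On the pan-neuronal scale none of the 4 was called, *tfap2a* (0.15) and *en2a* (0.16) turned above 0, and 9 of the 21 (42.9%, beside 65.3% of all tested genes) were called higher and 0 lower.

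**Figure D4:**
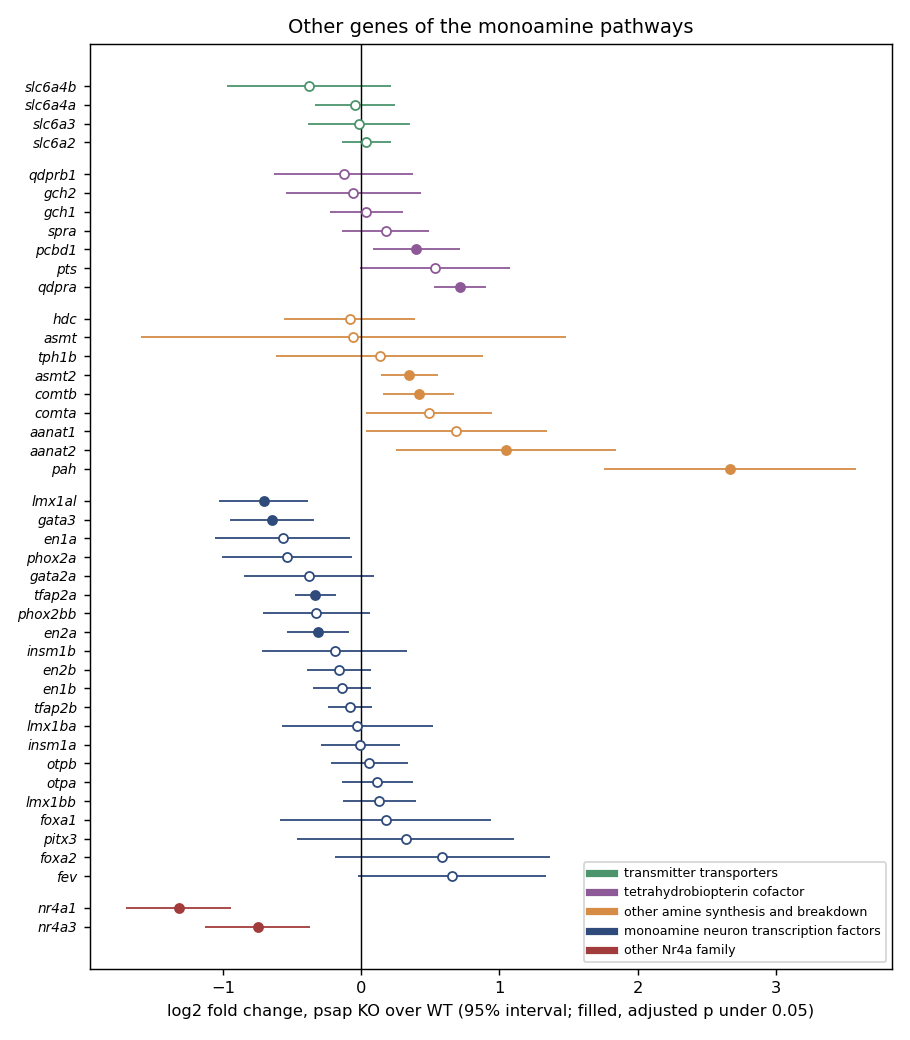
Change in *psap* KO against WT on the log2 scale with 95% intervals for the 43 measured genes of 5 further lists (filled, adjusted p under 0.05; open, not past the threshold), sorted within each list. The 4 transporters straddle 0, the filled cofactor and amine metabolism genes lie to the right with *pah* farthest at 2.67, and the filled transcription factors and other Nr4a genes lie to the left.

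The spread of the 10 genes within a genotype was described with log2 CPM centred on each genotype's mean over the 8 libraries. Depth differed between these libraries and, like any difference in dissection, is shared by all genes of a library. Dissection per library is not given in the sources used here. Among the 45 pairs of monoamine genes the strongest relation was negative, between *nr4a2a* and *mao* (Pearson r = -0.884, Spearman rho = -0.881). *th* had weaker relations with the others (Pearson r between -0.333 and 0.256, Spearman rho between -0.476 with *slc18a2* and 0.214 with *tph2*). Of 14124 genes compared, the ones most like *th* in this spread were *lrp2a* (r = 0.962), *rasa1a* (0.950) and *wdhd1* (0.949). Those most like *dbh* were *kansl2* (0.977), *irx6a* (0.974) and *rcc1l* (0.964). Those most like *tph2* were *frg1* (0.977), *smarca1* (0.975) and *slc26a2* (0.975). Correlations of this size over 8 libraries and so many genes are the top of a wide range and are given as values only.

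The 8 libraries held 15332163 to 25127578 counts, and the 10 genes had between 33 and 2451 counts in a library. *psap* itself was at 342 to 416 CPM in WT libraries and 381 to 450 CPM in KO libraries (log2 fold change 0.13, adjusted p = 0.206), and a count over the whole gene checks no label here, since the insertion lies within the transcript. Over all tested genes 22.3% were higher and 18.5% lower, to be read beside each count of markers in this paragraph. All 13 microglial marker genes were higher in *psap* KO, with sums of 1926 to 2355 CPM against 296 to 378 CPM. Of 9 radial astroglial markers 7 were higher and 1 (*her4.1*) lower, with sums of 4524 to 5560 against 3229 to 3765 CPM. These transcripts rose beside *dbh*, *nr4a2b*, *ddc*, *qdpra*, *pcbd1*, *comtb*, *asmt2* and *pah*, and their part in those changes was not tested. Of 11 hypothalamic markers, beside the lower *th2* and *tph1a*, 2 were higher and 1, the peptide gene *oxt*, was lower. The log2 fold changes were 2.05 for *agrp* (edgeR adjusted p = 7.43e-04), 0.62 for *pmch* (0.0350) and -1.28 for *oxt* (0.00111). WT sums ranged from 80.4 to 107 CPM and KO sums from 63.7 to 88.4 CPM. With *oxt* left out, a choice made after its values were seen, they ranged from 49.0 to 61.7 and from 51.3 to 66.7 CPM. The higher *agrp* and *pmch* stayed in that sum, and the part of hypothalamic transcripts was not tested. The 8 hindbrain markers were all Hox genes, and 0 passed the edgeR test (1 higher at an unadjusted p under 0.05, 0 by DESeq2 and by limma-voom). Their sums of 28.9 to 36.7 and 28.6 to 39.9 CPM overlapped beside the higher *dbh*, and their part was not tested. Skeletal muscle transcripts summed to 39.6 to 60.9 CPM across KO libraries and to 99.9 to 112 CPM across WT replicates 2 to 4, with WT replicate 1 far higher (766.3 CPM). All 6 erythrocyte marker rows were lower in *psap* KO, with sums of 106 to 181 CPM against 260 to 485 CPM in WT, and the part of blood or muscle in the monoamine values was not tested. Leaving out WT replicate 1 ended the calls of *th2* and *ddc* alone among the 5.

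**Figure D5:**
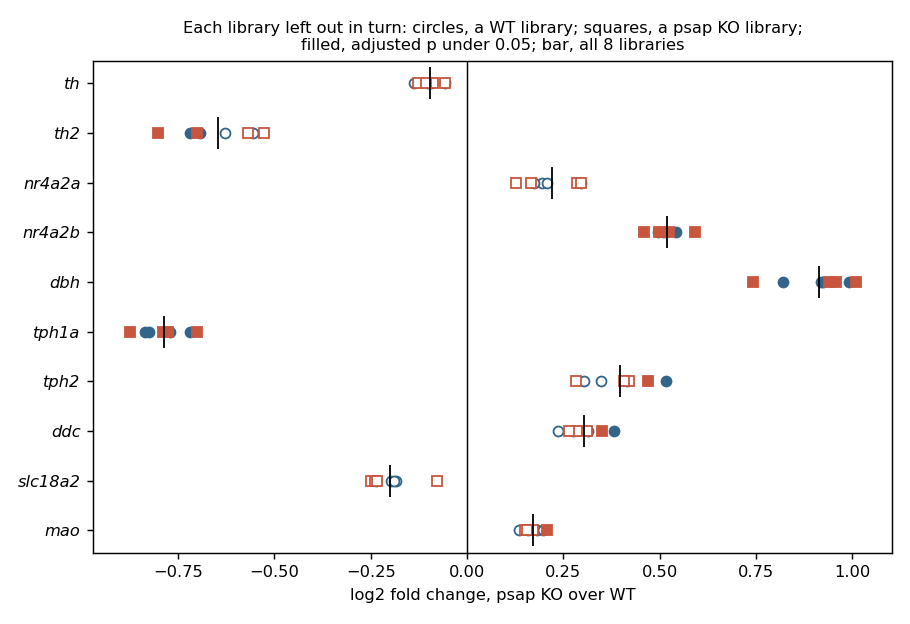
Change in *psap* KO against WT on the log2 scale for the 10 monoamine genes with each of the 8 libraries left out in turn (circles, a WT library left out; squares, a *psap* KO library left out; filled, adjusted p under 0.05; bars, all 8 libraries). *dbh*, *nr4a2b* and *tph1a* stay filled throughout, *th2* and *ddc* are open for some libraries, and no gene crosses 0.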

How the data were processed

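Brain total RNA of 4 WT and 4 *psap* KO pools was sequenced after ribosomal depletion with a stranded kit. The authors deposited raw counts per gene and library, made by removing optical duplicates, trimming with cutadapt 1.16, aligning with STAR 2.6.1b and assigning reads with featureCounts 1.6.3. Their methods name the Zv10 genome, while the annotation names no build. Whether reads were assigned by strand is not given in the sources used here. The authors' own DESeq2 1.22.2 fold changes, p-values and normalised columns were not used. RNA of 1 pool is 1 replicate. On average over genes, no 2 libraries of the same genotype agreed within sampling noise.

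Counts were tested with edgeR 4.0.16 in R 4.3.3 (filterByExpr, TMM, robust quasi-likelihood fit, Benjamini-Hochberg over all tested genes), with limma-voom 3.58.1, DESeq2 1.42.0, other scalings and filters, a replicate term and each library left out as alternatives. CPM on the log2 scale used a prior count of 2, and intervals are 95%. Ratios were tested with exact two-sided permutation tests, whose smallest p is 0.0286. The script was tested on simulated counts. All 10 genes are named, as are up to 4 genes with the smallest p past the threshold in each of 5 further lists and the 3 genes most like *th*, *dbh* and *tph2*. These genes and lists were chosen with earlier results of these data known. Sequences were not used here.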

Additional observations from a re-analysis of the deposited data

Results flagged for a closer look

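In the *psap* KO libraries, *slc18a2* of replicate 4 was at 11.03 CPM, far below the other 3 at 15.8 to 16.4 CPM. Its gap to the nearest library was 0.893 of the group's range, above Dixon's 95% critical value for 4 samples. It was the only one of 20 groups checked (10 genes in 2 genotypes), and chance gives about 1 in 20. The same library had 16.7 CPM of *tph2*, the highest of the 8, and 1.69 CPM of *th2*, the lowest.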

How the results depend on the processing

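The higher *dbh* was called under all 17 alternatives, *nr4a2b* under 16 and *tph1a* under 16, while *th2* held under 12 and *ddc* under 7. Scaling to the pan-neuronal genes, which moves the median of all genes up by 0.48, gave 13809 genes higher and 476 lower over the whole table, 8 and 0 of the monoamine genes, and turned *th* to 0.39 and *slc18a2* to 0.28. Of the monoamine genes, 5 were higher under upper-quartile scaling, with *tph2* and *mao* joining. That scaling moved the median of all genes up by 0.0321 and gave 5080 genes higher and 3467 lower over the table. With a mean count of at least 50, 5 were higher too, with *tph2* at 0.42 (0.40 in the main fit) and *mao* at 0.19 (0.17). Over the genes left by that filter 4100 were higher and 3519 lower, and the cause of the added calls was not tested. Leaving out single libraries gave 2 to 3 monoamine genes higher and 1 to 2 lower, with 4225 to 4541 genes higher and 3362 to 3875 lower over the table. Without replicate 3 of both genotypes, added after seeing the data, 1 was higher, with 3663 genes higher and 2866 lower over the table. *ddc* also missed the threshold under RLE size factors (adjusted p = 0.0602) and DESeq2 (0.0715), and *tph2* passed with limma-voom (0.0427). The main fit did not take the replicate numbers as pairs, and the labels name no pairs. Same-numbered libraries, centred within genotype, correlated at 0.0575 to 0.167. Numbers 3 and 4 matched best with their own number from both genotypes. WT replicate 2 matched best with *psap* KO replicate 2, but not the reverse. The paper states that WT and KO samples were processed in alternation, and shared handling of same-numbered libraries was not tested. With the replicate block, 3 monoamine genes were higher and 2 lower, with *ddc* lost (0.0519) and *tph2* gained (0.0181), and 4908 genes were higher and 4429 lower over the table. *th2* and *dbh* rest on 33 to 109 counts per library, which limits their precision. The planned comparison of protein and promoter sequences was not run.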
